A study of Mus musculus with 4 samples.

Results

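A total of 45 genes of DNA replication and S phase were followed in CD4 T cells transduced with an empty retrovirus (EV RV) or with a retrovirus encoding Tox (Tox RV). The genes were chosen by symbol, for the known roles of their proteins in the replicative helicase, origin licensing, the sliding clamp, DNA polymerases, Okazaki fragment processing, deoxynucleotide supply and chromatin assembly. All 45 were found among the 24369 genes listed in the deposited files, and all 45 were among the 14143 genes with enough reads to be tested. Of these 45 genes, 0 passed an adjusted p of 0.05 between Tox RV and EV RV in the main test, which called 0 of all genes tested. Their log2 fold changes lay between -0.20 and 0.28. Their levels differed more between the libraries of 1 group than between the groups. The summed level of the genes was 1.55 times as high in EV RV replicate 2 as in EV RV replicate 1 and 1.44 times as high in Tox RV replicate 2 as in Tox RV replicate 1, whereas the mean of the Tox RV libraries was 1.06 times that of the EV RV libraries.

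Replication starts at origins, where the origin recognition complex, CDC6 and CDT1 load the ring-shaped MCM helicase onto DNA during G1, a step that geminin blocks once S phase has begun. CDC45 and the GINS complex then turn the loaded ring into an active helicase, polymerase alpha with primase starts each new strand, and polymerases epsilon and delta extend it while held by the PCNA ring that the clamp loader RFC places on DNA. Many of these genes are transcribed late in G1 and in S phase under the E2F family of transcription factors, and naïve T cells, which rest outside the cell cycle, switch them on when they are activated to divide.

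Naïve CD4 T cells came from the spleens of WT C57BL/6 mice, whose age the sources used here do not give for this experiment. In both groups they were activated on plates coated with anti-CD3, with anti-CD28 in solution and, per the methods, recombinant human IL-2 (the sample labels repeat anti-CD28 in place of IL-2), were left unpolarized, and were transduced on day 2. EV RV cells received MSCV-IRES-eGFP and Tox RV cells received MSCV-Tox-IRES-eGFP, so that Tox was produced from a viral vector and every analysed cell carried a vector with GFP. On day 5 the cells were restimulated for 5 h, with anti-CD3 per the methods, whereas the paper's results name anti-CD3 and anti-CD28. GFP+ CD4 cells were then sorted, and bulk RNA was sequenced in 2 libraries per group, with 2 individual mice behind each group.

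Depth ranged from 46989997 to 74548723 expected counts per library, the number of fragments that the authors' quantification assigned to genes. *Tox* itself, as a check of the labels, measured 11.7 and 5.73 CPM under EV RV but 121 and 99.9 CPM under Tox RV, where CPM are the counts per 1000000 after edgeR's TMM scaling. All 8 CD4 T cell markers were tested, with a summed level of 1975 to 2914 CPM in the EV RV and 2356 to 2650 CPM in the Tox RV libraries. Of the 8 B cell markers 3 passed the filter on low counts, with *Ms4a1* and *Pax5* at 0 in every library, and of the 10 myeloid markers 4 passed, with each list summing to at most 2.49 CPM. Of the 8 CD8 T and NK cell markers 6 passed and *Ncr1* was at 0 in every library. EV RV replicate 1 stood apart from the other libraries: the ribosomal RNA gene *Rn45s* took 24.7% of its counts, against 11.97% in EV RV replicate 2, 10.3% in Tox RV replicate 1 and 7.14% in Tox RV replicate 2. The first principal component of all genes placed it at -42.8, with the other 3 libraries between 5.70 and 19.6.

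Promoters are shown because E2F binding sites are a classical control element of this gene group. Whether these sites bear on the differences between libraries given below was not tested. RefSeq promoter windows of 300 bases, from 250 before to 50 after the start site in build GRCm38.p6, were matched by symbol to 37 of the 45 genes and not to *Rfc2*, *Gmnn*, *Mcm4*, *Prim2*, *Gins4*, *Gins1*, *Pole* or *Gins2*. The 4 E2F octamers TTTCCCGC, TTTCGCGC, TTTGCCGC and TTTGGCGC were searched on both strands, with overlapping matches allowed. At least 1 of them stood in a window of 15 of the 37 genes (40.5%), against 2.61% of all 27025 genes with a window, where a gene with several windows counts once. The match lay before the start site in 9 of these 15 genes and only after it in 6. Printed below are 3 of the 9 genes with a match before the start site, so they do not stand for all 37. Of them, 2 are helicase subunits and 1 is the catalytic subunit of polymerase alpha. The 170 bases that end just before the start site are given 5′ to 3′ on the strand of the gene. E2F octamers are in capitals.
Mcm5 (chr8:75109339-75109508, plus strand): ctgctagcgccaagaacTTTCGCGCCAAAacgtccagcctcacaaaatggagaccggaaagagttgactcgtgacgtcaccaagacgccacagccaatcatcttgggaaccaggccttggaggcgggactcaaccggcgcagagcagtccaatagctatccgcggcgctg
Mcm6 (chr1:128359706-128359875, minus strand): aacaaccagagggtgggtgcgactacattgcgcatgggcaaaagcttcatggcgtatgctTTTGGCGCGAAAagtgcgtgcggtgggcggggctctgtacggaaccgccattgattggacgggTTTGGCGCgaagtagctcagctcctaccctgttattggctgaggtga
Pola1 (chrX:93632156-93632325, minus strand): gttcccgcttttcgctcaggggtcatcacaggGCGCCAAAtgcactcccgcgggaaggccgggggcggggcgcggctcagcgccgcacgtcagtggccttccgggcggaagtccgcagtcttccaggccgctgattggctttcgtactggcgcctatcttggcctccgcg
The capitals of *Mcm5* hold 2 overlapping octamers on opposite strands, those of *Mcm6* hold 3 octamers, of which 2 overlap, and those of *Pola1* hold 1. Among the other motifs searched on both strands, the CCAAT box (CCAAT) stood in a window of 62.2% of the 37 genes and of 41.1% of all genes with one. The GC box (GGGCGG) did so for 78.4% of the 37 genes against 38.2% of all genes, and the cell cycle homology region (TTTGAA) for 13.5% against 20.2%. A match describes the letters of the window and shows no binding.

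Whether Tox RV and EV RV cells differed in replication gene expression was tested with edgeR's quasi-likelihood test across all 14143 genes, 2 libraries against 2. With Benjamini-Hochberg adjustment 0 of the 45 genes passed 0.05, and 0 of all genes tested did (0%). Even *Tox*, supplied by the vector, did not pass (log2 fold change 3.68, edgeR adjusted p = 0.490), so a count of 0 from this test says little. DESeq2 did call *Tox* (DESeq2 adjusted p = 3.79e-24). The smallest adjusted p of a member was 0.902. At an unadjusted p below 0.05 the count was again 0 of 45, against 3.62% of all genes tested, and DESeq2 called 0 of the 45, against 0.121% of the genes it tested. For none of the 45 did both Tox RV libraries lie above or below both EV RV libraries, whereas this held for 36.0% of all genes tested. In every one of the 45 the log2 fold change was smaller than its standard error, which ranged from 0.19 to 0.47 with a median of 0.31.

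The 45 log2 fold changes had a median of 0.11, against 0.0036 over all genes tested, and 35 lay above 0, where 50.4% of all genes did. Their 95% intervals stayed within a 2-fold change in both directions for 25 genes. The interval reached a 2-fold increase for 20 genes and a 2-fold decrease for 1, *Orc1*, whose interval ran from -1.24 to 1.01. With 2 libraries per group, differences of any size inside these intervals remain possible. The intervals are no limit of detection, since edgeR did not call *Tox* at a log2 fold change of 3.68. In bulk RNA, a different share of cells in S phase and a different level of these transcripts per cell cannot be told apart.

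**Figure D1:**
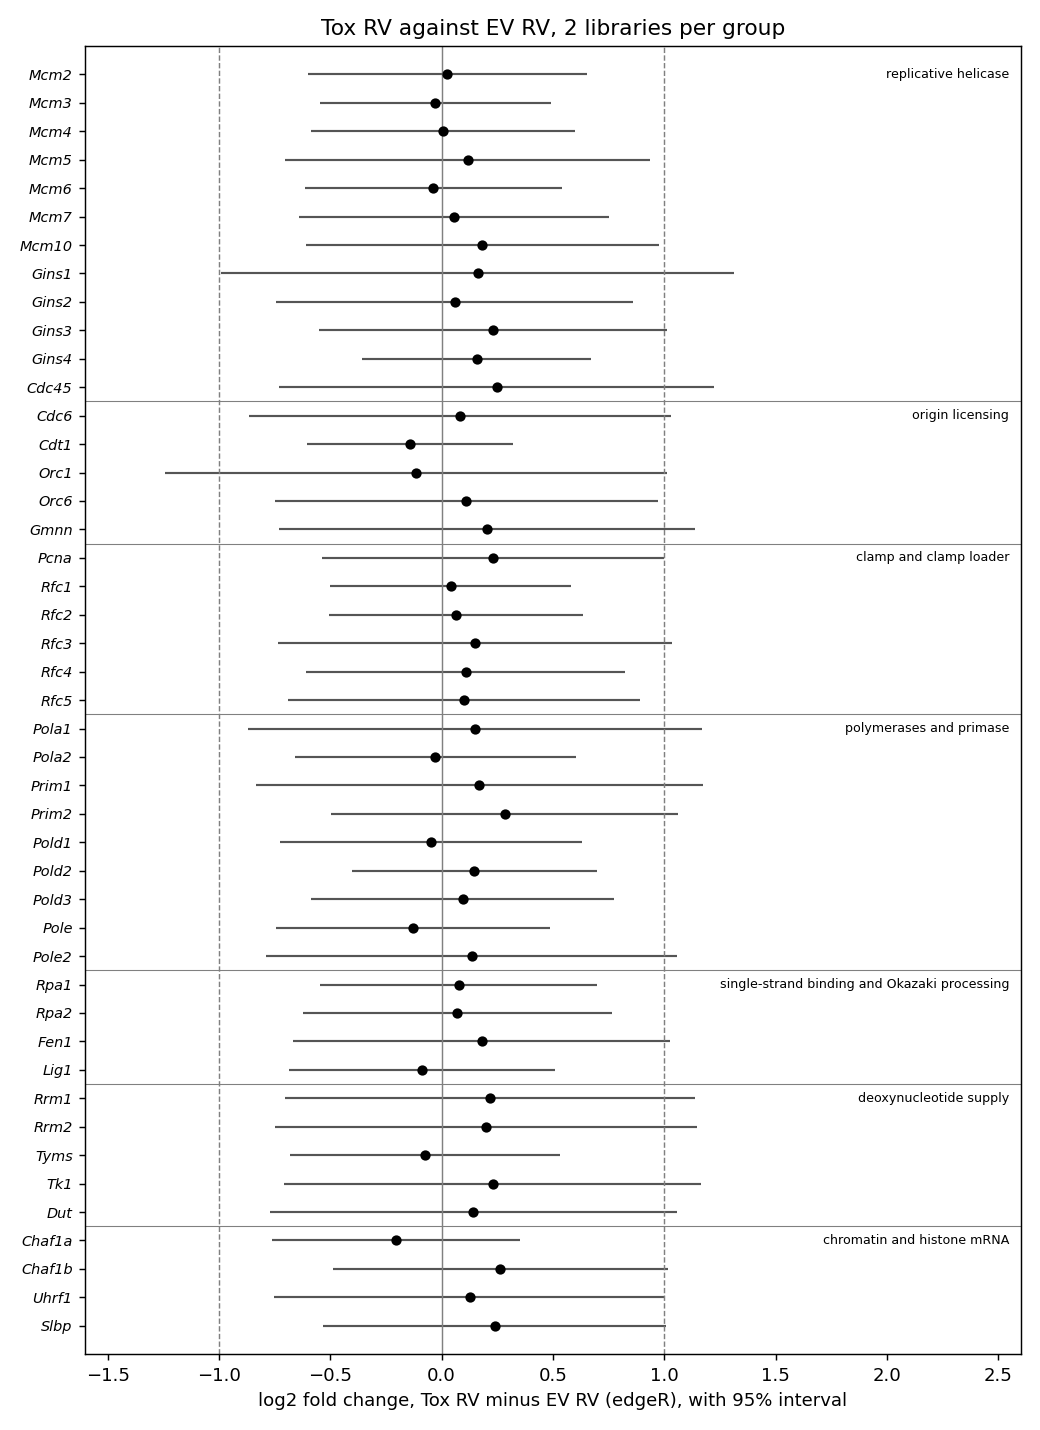
Log2 fold change of Tox RV against EV RV (x axis) for each of the 45 replication genes, grouped by role, with the edgeR estimate as a point, its 95% interval as a bar and dashed lines at a 2-fold change. All 45 intervals include 0, and the points run from -0.20 to 0.28.

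The helicase group held 12 genes, 10 with a log2 fold change above 0, and its median was 0.09. *Mcm2* (chr6:88883474-88898780 in mm10, as for all gene positions here), a subunit of the hexameric MCM ring, stood at 156 and 224 CPM under EV RV, against 164 and 222 CPM under Tox RV, replicate 1 being given before replicate 2 here and in every pair of values. Both replicate 1 libraries were low and both replicate 2 libraries high, so the groups overlapped, with means of 189.8 ± 48.0 and 193 ± 40.8 CPM (SD, n = 2 each). For the other 5 subunits of the ring, too, both replicate 1 libraries lay below both replicate 2 libraries. *Mcm3* (chr1:20802968-20820312) was at 193 and 233 CPM in EV RV and 181 and 237 CPM in Tox RV. *Mcm4* (chr16:15623897-15637400) was at 156 and 206 CPM in EV RV and 153 and 211 CPM in Tox RV. For *Mcm3* and *Mcm4* the Tox RV libraries enclosed the EV RV libraries, whereas for *Mcm2* the EV RV libraries enclosed the Tox RV libraries.

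*Mcm5* (chr8:75109569-75128439), whose promoter is printed above, was at 201 and 359 CPM in EV RV and 247 and 359.7 CPM in Tox RV. *Mcm6* (chr1:128331590-128359664), also printed above, was at 346 and 446 CPM in EV RV and 324 and 448 CPM in Tox RV. *Mcm7* (chr5:138164583-138172422) was at 124 and 171 CPM in EV RV and 119.5 and 187 CPM in Tox RV. Tox RV replicate 1 was the lowest library for *Mcm3*, *Mcm4*, *Mcm6* and *Mcm7*, and EV RV replicate 1 the lowest for *Mcm2* and *Mcm5*. Log2 fold changes over the 6 subunit genes ran from -0.04 (SE 0.23) for *Mcm6* to 0.12 (SE 0.33) for *Mcm5*, with edgeR adjusted p-values of 0.951 to 0.996. Reads of *Mcm7* are uncertain, because the processed pseudogene *Gm5487*, not listed in the files, matches it at 97.7% over 2157 bases. For *Mcm3*, with the narrowest interval of the 6, the 95% interval was -0.55 to 0.49.

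Per unit of transcript length, *Mcm6* stood highest among the 6 in every library, at 210.2, 258, 181 and 251 TPM, with the EV RV libraries given first. *Mcm4* stood lowest, at 75.6, 95.2, 68.3 and 94.4 TPM. *Mcm6* and *Mcm4* kept nearly one proportion while their levels moved, and the ratio of *Mcm6* to *Mcm4* in TPM was 2.78, 2.70, 2.65 and 2.65 in the same order of libraries. The ratio of *Mcm5* to *Mcm4* was 1.35 in EV RV replicate 1 and 1.82, 1.69 and 1.78 in the other 3 libraries.

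**Figure D2:**
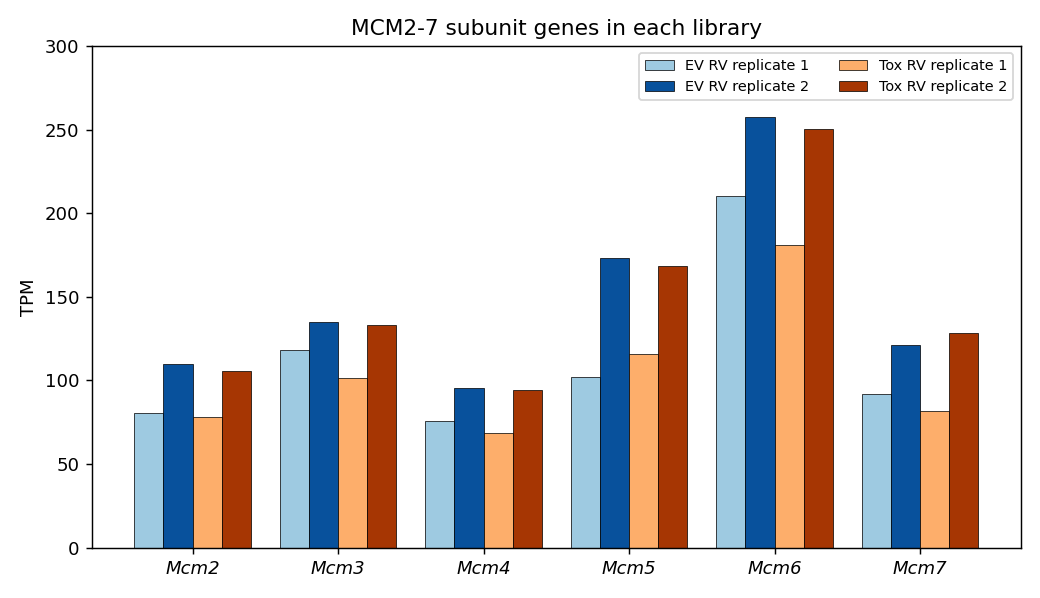
Level in TPM (y axis, from 0) of the 6 MCM ring subunit genes in each of the 4 libraries, 1 bar per library. Both replicate 2 libraries stood above both replicate 1 libraries for each gene, and *Mcm6* was the highest gene in every library.

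Of the remaining 6 helicase genes, *Cdc45* (chr16:18780447-18811987), which joins the MCM ring and the GINS complex to form the active helicase, had the third highest log2 fold change of the 45. It was at 34.7 and 70.8 CPM in EV RV and 48.1 and 77.4 CPM in Tox RV. The groups overlapped, with EV RV replicate 1 lowest, and the log2 fold change was 0.25 (SE 0.39, edgeR adjusted p = 0.918). The 4 GINS genes *Gins1* to *Gins4* and *Mcm10*, whose protein helps to activate the helicase, had log2 fold changes of 0.06 to 0.23. *Gins1*, with the fewest counts of the 45 in a library, was at 8.13 and 19.6 CPM in EV RV and 11.4 and 19.7 CPM in Tox RV, and its interval was the widest (-0.99 to 1.31). Reads of *Gins2* are uncertain, because 67.3% of its exonic bases are shared with *Gse1* on the opposite strand and the sources used here do not say whether strand entered the counting.

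The licensing group held 5 genes, 3 of them with a log2 fold change above 0, and a median of 0.08. *Cdt1* (chr8:122568015-122573554), which brings the MCM ring to the origin, was at 60.4 and 59.1 CPM in EV RV and 48.0 and 60.4 CPM in Tox RV. Its 4 libraries lay close together except Tox RV replicate 1, which was lowest. The groups overlapped narrowly, since Tox RV replicate 2 fell between both EV RV values. Its log2 fold change came to -0.14 (SE 0.19, edgeR adjusted p = 0.906), with a 95% interval of -0.60 to 0.32, and it was 0.0094 without Tox RV replicate 1. In TPM, *Cdt1* was at 48.2 and 44.8 under EV RV against 35.2 and 44.3 under Tox RV. It was the 1 member of the 45 for which the groups did not overlap on that scale, as was so for 34.7% of all genes tested.

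*Gmnn* (chr13:24751845-24761923) encodes geminin, the inhibitor that binds CDT1. It was at 22.2 and 43.2 CPM in EV RV and 29.1 and 46.4 CPM in Tox RV. Both replicate 1 libraries were low, the groups overlapped, and the log2 fold change was 0.20 (SE 0.38, edgeR adjusted p = 0.927). The ratio of *Cdt1* to *Gmnn* in TPM was 1.10 in EV RV replicate 1, 0.552 in EV RV replicate 2, 0.665 in Tox RV replicate 1 and 0.526 in Tox RV replicate 2. *Cdt1* was above *Gmnn* in EV RV replicate 1 and below it in the other 3 libraries. The origin recognition genes *Orc1* and *Orc6* and the loader gene *Cdc6* had log2 fold changes of -0.11, 0.11 and 0.08. Reads of *Cdc6* are uncertain, because the processed pseudogene *Gm9430* matches it at 95.2% over 1528 bases. On the log2 scale *Orc1* showed the widest difference between EV RV libraries of all members, at 15.6 and 39.4 CPM, against 20.1 and 30.8 CPM in Tox RV.

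The clamp group held *Pcna* and the 5 clamp loader genes *Rfc1* to *Rfc5*, all 6 with a log2 fold change above 0 and with a median of 0.11. *Pcna* (chr2:132249162-132253314), the ring that tethers polymerases to DNA, was at 255 and 443 CPM in EV RV and 345 and 474 CPM in Tox RV. The lowest library was EV RV replicate 1 and the highest Tox RV replicate 2, with the other 2 between them in the order Tox RV replicate 1, EV RV replicate 2. The means were 349 ± 133 and 409.9 ± 91.2 CPM (SD, n = 2 each), and the log2 fold change was 0.23 (SE 0.31, edgeR adjusted p = 0.907). Per transcript length *Pcna* was the highest of the 45 genes in every library, at 384 to 657 TPM. Reads of *Pcna* are uncertain, because a processed pseudogene that the files do not list, *Pcna-ps2*, matches it at 99.2% over 781 bases. The 5 clamp loader genes had log2 fold changes of 0.04 (*Rfc1*) to 0.15 (*Rfc3*). Reads of *Rfc5* are uncertain too, since the processed pseudogene *Gm12870* matches it at 96.2% over 1020 bases. *Rfc2*, *Rfc4* and *Rfc5* share 10.7% to 15.1% of their exonic bases with a gene on the opposite strand, and the same limit on their reads holds.

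The polymerase and primase group held 9 genes, 6 with a log2 fold change above 0, and a median of 0.13. *Prim2* (chr1:33453810-33669795), the large subunit of primase, had the highest log2 fold change of the 45. It was at 15.4 and 27.2 CPM in EV RV and 22.2 and 29.7 CPM in Tox RV. EV RV replicate 2 lay between both Tox RV values, and the fit gave a log2 fold change of 0.28 (SE 0.32, edgeR adjusted p = 0.902), with a 95% interval of -0.50 to 1.06. *Pole* (chr5:110286306-110337474), the catalytic subunit of polymerase epsilon, had the third lowest log2 fold change and was at 114 and 145 CPM in EV RV and 95.6 and 141 CPM in Tox RV. Tox RV replicate 1 was its lowest library, the groups overlapped, and the log2 fold change was -0.13 (SE 0.25, edgeR adjusted p = 0.931). The other 7 genes, *Pola1*, *Pola2*, *Prim1*, *Pold1*, *Pold2*, *Pold3* and *Pole2*, had log2 fold changes of -0.05 (*Pold1*) to 0.17 (*Prim1*). Subunits of one polymerase did not keep one proportion in every library: *Pola2* to *Pola1* in TPM was 2.61 in EV RV replicate 1 and 1.53, 1.68 and 1.62 in the other 3 libraries.

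The 4 genes of single-strand binding and Okazaki fragment processing had a median of 0.07. *Rpa1* and *Rpa2*, subunits of the complex that coats single-stranded DNA, had log2 fold changes of 0.08 and 0.07. *Fen1*, the nuclease that trims the flaps of Okazaki fragments, was at 0.18, and *Lig1*, the ligase that seals them, at -0.09. The antisense gene *Gm10143*, which the files do not list, covers 78.8% of the exonic bases of *Fen1*, so its reads are uncertain.

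Deoxynucleotide supply was represented by 5 genes with a median of 0.20, the highest of the 7 role groups. *Rrm1* and *Rrm2*, the large and small subunits of ribonucleotide reductase, had log2 fold changes of 0.22 and 0.20 and kept a ratio of *Rrm2* to *Rrm1* in TPM of 1.29, 1.36, 1.32 and 1.31 over the 4 libraries. Reads of *Rrm2*, and with them this ratio, are uncertain over 419 bases, which the processed pseudogene *Gm48455* matches at 95.5%. *Tk1*, which salvages thymidine, was at 0.23, *Dut*, which removes dUTP, at 0.14, and *Tyms*, the thymidylate synthase gene, at -0.07. *Tyms* shares stretches of 330 to 361 bases with 10 other genes at up to 97.7% identity, so its reads are uncertain there. The summed level of the 5 genes was 479 and 843 CPM in EV RV and 574 and 868 CPM in Tox RV, again low in both replicate 1 libraries.

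The chromatin group held 4 genes with a median of 0.18, and included both the second highest and the lowest log2 fold change of the 45. *Chaf1b* (chr16:93883901-93906115) and *Chaf1a* (chr17:56040439-56072289) encode subunits of CAF-1, which places histones on newly made DNA. *Chaf1b* was at 17.8 and 28.8 CPM in EV RV and 23.0 and 33.0 CPM in Tox RV, with a log2 fold change of 0.26 (SE 0.30, edgeR adjusted p = 0.903). *Chaf1a* was at 49.6 and 63.7 CPM in EV RV and 42.4 and 55.9 CPM in Tox RV, with a log2 fold change of -0.20 (SE 0.23, edgeR adjusted p = 0.902). Both genes were higher in replicate 2 of each group and overlapped between groups. The ratio of *Chaf1a* to *Chaf1b* in TPM was 1.56 and 1.23 for EV RV and 1.03 and 0.946 for Tox RV. This ratio was chosen after its values were seen, and the difference was not tested. Among the other ratios given here, that of *Mcm6* to *Mcm4* did not overlap between groups either. Those of *Mcm5* to *Mcm4*, *Cdt1* to *Gmnn*, *Pola2* to *Pola1* and *Rrm2* to *Rrm1* overlapped. Of single genes, 34.7% of all tested did not overlap between groups in TPM. Reads of *Chaf1a* are uncertain, since 52.5% of its exonic bases are shared with *Ubxn6* on the opposite strand. *Uhrf1*, which recruits the maintenance DNA methyltransferase, and *Slbp*, which binds the stem-loop of histone transcripts, had log2 fold changes of 0.13 and 0.24. Reads of both are uncertain, since the processed pseudogene *Gm5648* matches *Uhrf1* at 98.3% over 1590 bases and *Gm8396* matches *Slbp* at 95.5% over 828 bases.

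The 45 genes moved together between the libraries of one group. EV RV replicate 2 was above EV RV replicate 1 for 44 of the 45, where 49.7% of all genes tested were, and by a median of 0.75 on the log2 CPM scale, where the median over all genes was -0.0046. Tox RV replicate 2 was above Tox RV replicate 1 for 45 of the 45, where 49.5% of all genes were, by a median of 0.53, where all genes had -0.0023. Both replicate 2 libraries stood above both replicate 1 libraries for 44 of the 45 genes, where 22.6% of all genes did so, and *Cdt1* was the exception. With 2 libraries per group these counts carry no test, and the labels do not tie a replicate number to the same mouse in both groups.

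**Figure D3:**
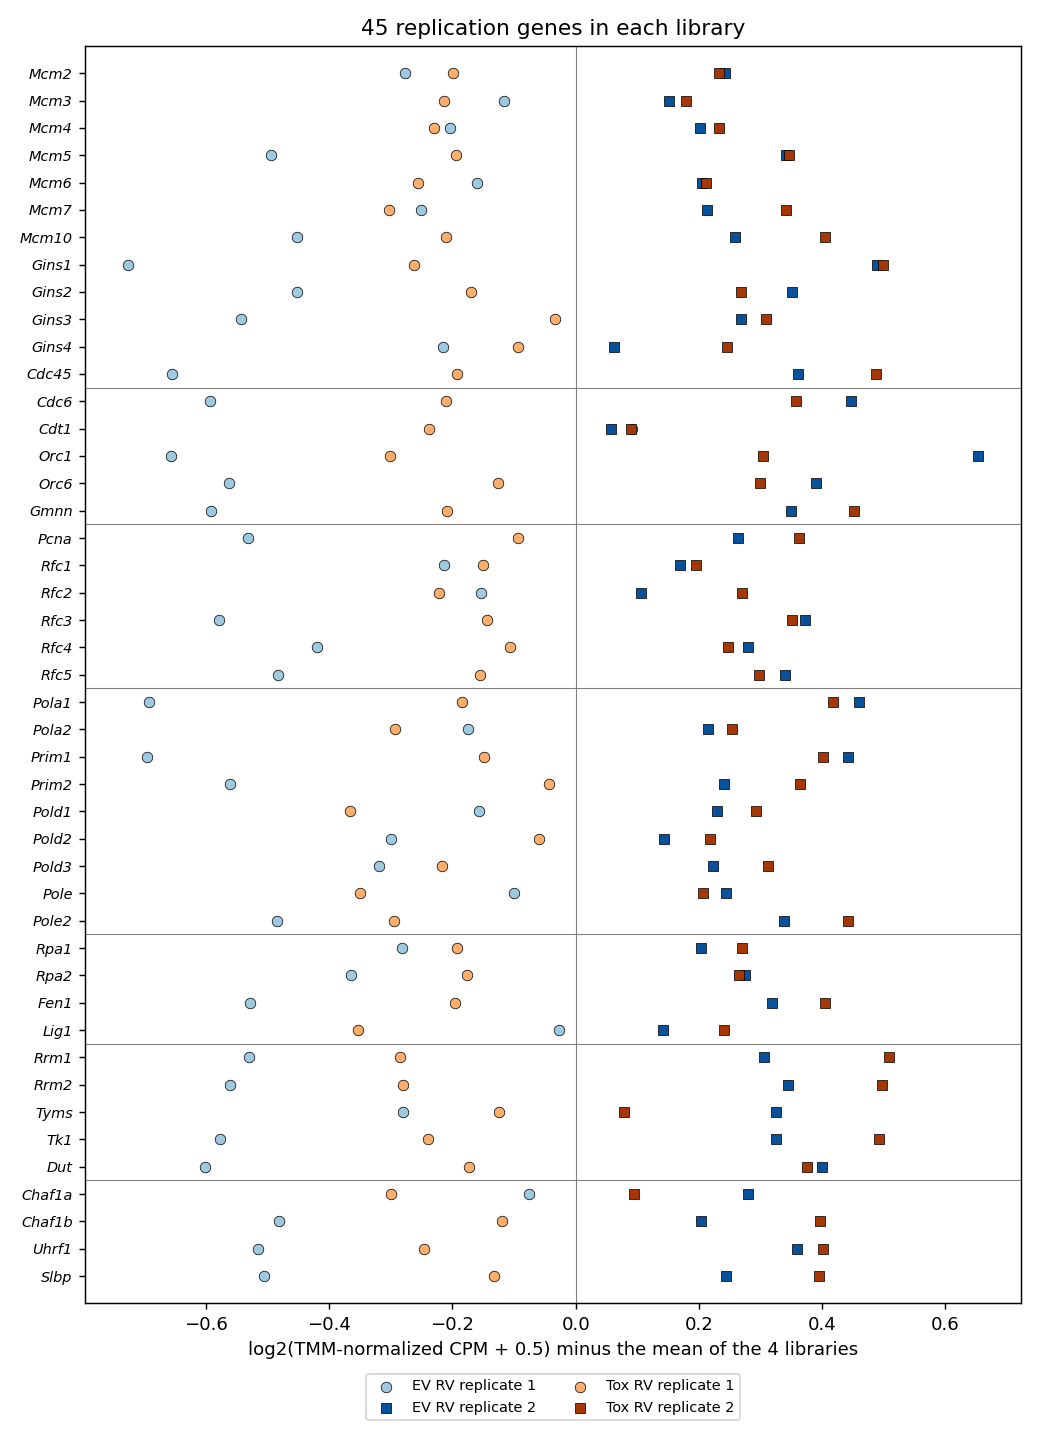
Level of each of the 45 replication genes in each library, as log2(CPM + 0.5) minus the mean of the 4 libraries for that gene (x axis), with circles for replicate 1 and squares for replicate 2. Both circles lie left of both squares for every gene but *Cdt1*, whose EV RV replicate 1 point is covered by that of Tox RV replicate 2.

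Member by member, EV RV replicate 2 differed from EV RV replicate 1 by -0.03 log2 units for *Cdt1* up to 1.31 for *Orc1*, and Tox RV replicate 2 from Tox RV replicate 1 by 0.20 for *Tyms* up to 0.79 for *Rrm1*. EV RV replicate 1 was the lowest library for 34 genes and Tox RV replicate 1 for the other 11. The highest library was Tox RV replicate 2 for 29 genes, EV RV replicate 2 for 15 and EV RV replicate 1 for 1, *Cdt1*. Summed over the 45 genes, the level was 3458 and 5362 CPM in EV RV and 3832 and 5509.8 CPM in Tox RV. The means of 4410.3 ± 1346 CPM in EV RV and 4671 ± 1186.5 CPM in Tox RV (SD, n = 2 each) differed by less than either SD, and an exact permutation test of 2 against 2 libraries cannot go below p = 0.333 (two-sided). These genes took 0.311% and 0.548% of all counts with EV RV, against 0.395% and 0.583% with Tox RV. Those totals include *Rn45s*, at 24.7% and 11.97% with EV RV and 10.3% and 7.14% with Tox RV, so the shares also depend on it.

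The sign of a Tox RV against EV RV difference depended on which libraries were set side by side. Tox RV replicate 1 was above EV RV replicate 1 for 34 genes (median 0.27 log2 units) and above EV RV replicate 2 for 0 genes (median -0.51). Tox RV replicate 2 was above EV RV replicate 1 for 44 genes (median 0.84) and above EV RV replicate 2 for 30 genes (median 0.04). Leaving out 1 library at a time moved the median over the 45 genes from a log2 fold change of 0.11 to -0.20 without EV RV replicate 1, to 0.59 without EV RV replicate 2, to 0.33 without Tox RV replicate 1 and to -0.18 without Tox RV replicate 2. The number of genes below 0, 10 with all libraries, became 44, 2, 1 and 42 in the same order. In each of these fits the lone library was assumed to vary like the other group, and 0 of the 45 genes passed an edgeR adjusted p of 0.05, the smallest being 0.0995 without EV RV replicate 2. Over all genes tested the share that passed was 0.00685% without EV RV replicate 1, 4.16% without EV RV replicate 2, 0.0834% without Tox RV replicate 1 and 0.156% without Tox RV replicate 2. At an unadjusted p below 0.05 the count was 1 of 45 without EV RV replicate 1 (7.49% of all genes tested), 16 without EV RV replicate 2 (29.7%), 0 without Tox RV replicate 1 (2.25%) and 0 without Tox RV replicate 2 (2.34%). The lone library lay outside the range of the other group for 18 of the 45 without EV RV replicate 1 (70.2% of all genes tested), 34 without EV RV replicate 2 (84.0%), 26 without Tox RV replicate 1 (61.2%) and 11 without Tox RV replicate 2 (56.4%). In these counts the share of the 45 genes was above that of all genes only at the unadjusted threshold without EV RV replicate 2.

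Other measures moved with the replicate number. The share of *Rn45s* was higher in replicate 1 than in replicate 2 of each group, as given above. The CD4 T cell markers summed to 2914 and 1975 CPM in EV RV and 2650 and 2356 CPM in Tox RV, higher in replicate 1 of each group, and 3 of the 8 markers had both replicate 1 libraries above both replicate 2 libraries, where 21.6% of all genes did. The CD8 T and NK cell markers summed to 137 and 125 CPM in EV RV and 105 and 82.5 CPM in Tox RV, with 4 of the 6 tested higher in both replicate 1 libraries. Most of that sum came from *Eomes*, while *Klrd1*, an NK cell receptor gene, was at 14.2 and 1.90 CPM in EV RV and 10.2 and 1.99 CPM in Tox RV. *Cd8a* stayed at 1.54 to 2.14 CPM. The part of these measures in the differences between libraries was not tested.

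**Figure D4:**
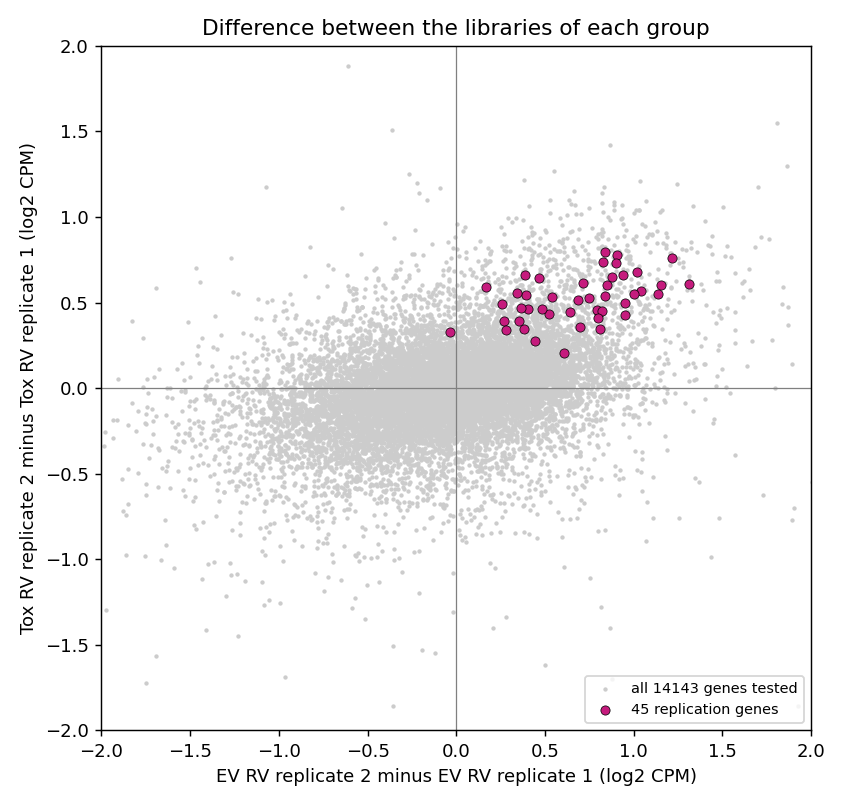
Difference in log2 CPM between replicate 2 and replicate 1 within EV RV (x axis) and within Tox RV (y axis), with 1 point per gene, the 45 replication genes in colour and all genes tested in grey (48 genes lie outside the axes). The coloured points lie in the upper right quadrant except *Cdt1*, which lies just left of 0 at -0.03.

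Other genes of the pathway were taken from 4 lists of 108 genes in all, of which all 108 were tested. By edgeR 0 passed an adjusted p of 0.05, as did 0% of all genes tested, so this count says little about the 108 genes. At an unadjusted p below 0.05 the edgeR count was 0, against 3.62% of all genes tested. DESeq2 called 0, against 0.121% of the genes it tested. The median log2 fold change was 0.08 with 75 genes above 0, where 50.4% of all genes were. Both replicate 2 libraries stood above both replicate 1 libraries for 86 of the 108 genes. The share differed between the lists, at 41 of 50 further replication factors, 17 of 20 S phase kinases and checkpoint genes, 19 of 20 mitotic genes and 9 of 18 E2F and RB family regulators. The difference between these shares was not tested.

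Among the further replication factors the median log2 fold change was 0.09, and 33 of 50 lay above 0. Their highest value was that of *Pole3*, a histone-fold subunit of polymerase epsilon, at 5.14 and 13.7 CPM in EV RV and 14.7 and 13.3 CPM in Tox RV (log2 fold change 0.56, SE 0.45). Their lowest value was that of *Samhd1*, which breaks down deoxynucleotides, at 692 and 259 CPM in EV RV and 240.1 and 233 CPM in Tox RV (log2 fold change -1.01, SE 0.44, edgeR adjusted p = 0.897). For each of them EV RV replicate 1 stood apart from the other 3 libraries, and without it the log2 fold changes were 0.03 and -0.13. Without EV RV replicate 2 they were 1.45 and -1.54, with edgeR adjusted p-values of 0.0336 and 0.0264, the only calls in the 4 lists under any setting run, in a fit that called 600 of 14408 genes (4.16%).

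The E2F and RB family regulators had a median of -0.05, with 8 of 18 above 0. *E2f7*, a repressor among the E2F factors, had the lowest log2 fold change and was at 19.6 and 23.7 CPM in EV RV and 10.95 and 19.5 CPM in Tox RV (log2 fold change -0.51, SE 0.31), and *E2f6*, another repressor, had the highest (0.29, SE 0.29). *E2f1*, an activator of S phase genes that was chosen after its values were seen, was at 26.5 and 21.3 CPM in EV RV and 15.6 and 19.6 CPM in Tox RV (log2 fold change -0.44, SE 0.21, edgeR adjusted p = 0.897). Both Tox RV libraries of *E2f1* and *E2f7* lay below both EV RV libraries, as was so for 17.4% of all genes tested, and neither gene passed the test. Of the 18 regulators 3 were lower and 2 higher in this sense, against 17.4% and 18.6% of all genes tested. Of the 50 further replication factors 4 were lower and 1 higher. Of the 20 S phase kinases and checkpoint genes 1 was lower and 0 higher. Among the 20 mitotic genes and the 45 replication genes there were none. Differences between these lists were not tested.

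S phase kinases and checkpoint genes had a median of 0.06, with 17 of 20 above 0. They ranged from -0.14 (SE 0.17) for *Wee1*, the kinase that holds CDK1 inactive, to 0.28 (SE 0.36) for *Skp2*, which targets the CDK inhibitor p27 for degradation. The mitotic genes had a median of 0.15, with 17 of 20 above 0, and summed to 1684 and 3077 CPM in EV RV and 1875 and 3313 CPM in Tox RV. *Bub1b*, a spindle checkpoint kinase gene, had their highest value (0.34, SE 0.36), and *Foxm1*, a transcription factor of G2 and mitosis, their lowest (-0.43, SE 0.29). *Foxm1* was at 52.4 and 44.4 CPM in EV RV and 26.3 and 45.7 CPM in Tox RV, where Tox RV replicate 1 was the lowest library and the groups overlapped.

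The split of signs moved with the scaling and the test. Library totals in place of TMM put 41 of the 45 genes above 0, but moved the median of all genes to 0.12 as well, so that the 45 genes lay 0.09 above it. On log2(TPM + 1), limma put 29 genes above 0 and 16 below, with 0 called and a median of 0.06. The sign for *Mcm3* and *Mcm6*, below 0 with TMM, was above 0 with library totals, and that for *Mcm2*, *Mcm4* and *Mcm7* was below 0 in limma.

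**Figure D5:**
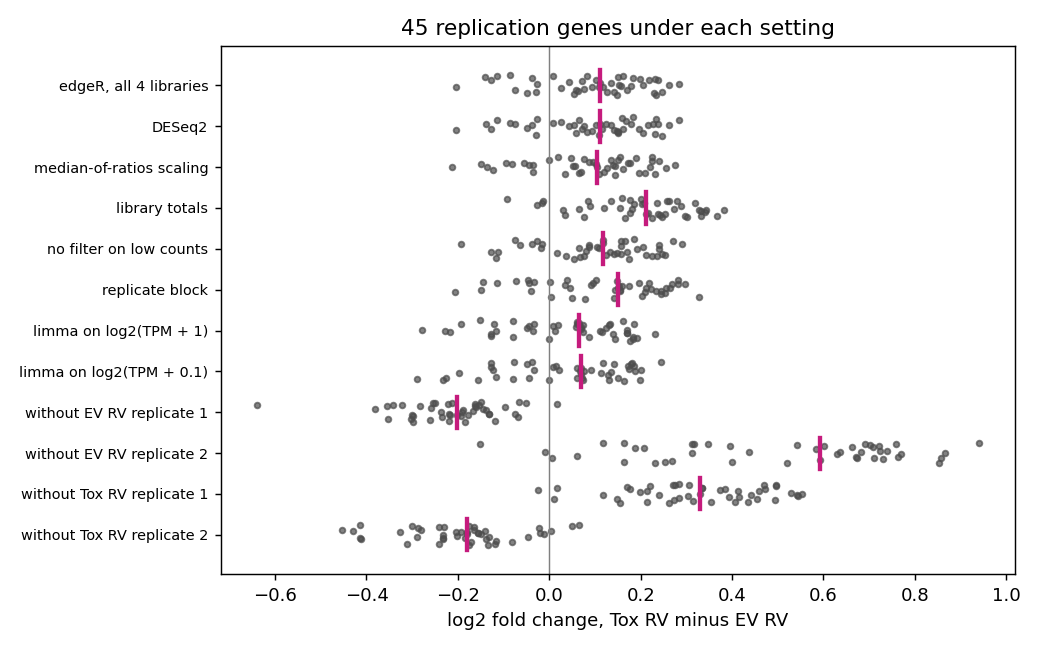
Log2 fold change of Tox RV against EV RV (x axis) for the 45 replication genes under 12 settings, with 1 point per gene and the median as a vertical bar. Medians lie between 0.06 and 0.21 with all 4 libraries and between -0.20 and 0.59 when 1 library is left out.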

How the data were processed

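RNA-seq was carried out on GFP+ CD4 T cells that carried EV RV or Tox RV, in 2 libraries per group, grouped by the sample labels. The authors checked reads with FastQC, aligned them to mm10 transcripts with bowtie (the submitters' processing notes list Bowtie and Bowtie2) and quantified genes with RSEM, 1 library per file and without pooling. Tool versions and the use of strand are not given in the sources used here. Expected counts, as deposited, estimate the fragments of each gene by RSEM and were not normalized. The deposited TPM values are transcripts per 1000000 by RSEM, which allow for transcript length. A further table of the whole series was not used here.

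Rounded expected counts were tested with edgeR 4.0.16 under R 4.3.3. filterByExpr with a minimum count of 10 kept 14143 of 24369 genes. Libraries were scaled by TMM, and glmQLFit and glmQLFTest compared Tox RV with EV RV with group as the only term. edgeR estimated a common biological coefficient of variation of 0.232 and 3.77 prior degrees of freedom. Adjustment over all genes followed Benjamini and Hochberg. Standard errors and 95% intervals were taken from the log2 fold change and its F statistic. CPM use the TMM-scaled library sizes, differences between libraries are of log2(CPM + 0.5), and a spread is the SD of 2 libraries.

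The 45 genes, the 4 related lists and the marker lists were chosen with earlier results of these data known. Values in each library are given for *Mcm2* to *Mcm7*, *Pcna*, *Cdt1*, *Gmnn*, any gene whose groups did not overlap, and the 3 highest and 3 lowest log2 fold changes. Of each related list the highest and lowest gene are named. *Gins1*, *Orc1*, *E2f1*, *Klrd1* and the ratios between genes were chosen after their values were seen.

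Alternatives were DESeq2 1.42.0 (the test the methods name), median-of-ratios scaling, library totals, no filter, the replicate number as a block, limma 3.58.1 on log2(TPM + 1) and log2(TPM + 0.1), each library left out, and, added after seeing the data, library totals without *Rn45s*. The tests were tested on simulated data. Gene positions and overlaps came from GENCODE M21, near-identical copies from blastn 2.17.0 (at least 95% identity over 300 bases), and promoters from RefSeq (GRCm38.p6).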

Additional observations from a re-analysis of the deposited data

How the results depend on the processing

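With 2 libraries per group, 0 of the 45 genes passed an adjusted p of 0.05 under any alternative, including each fit without 1 library. Over all genes, DESeq2 and the fit without a filter called 22 each and the fits without 1 library 1 to 600, while the other settings with all 4 libraries called 0 except the block, given below. The median over the 45 genes (log2 fold change) stayed above 0 under each alternative with all 4 libraries, at 0.11 with DESeq2, 0.10 with median-of-ratios scaling, 0.21 with library totals, 0.12 without a filter, 0.06 and 0.07 with limma on log2(TPM + 1) and log2(TPM + 0.1), and 0.08 with library totals after *Rn45s* was left out. When 1 library was left out it ran from -0.20 to 0.59, the number of the 45 genes whose groups did not overlap from 11 to 34 (56.4% to 84.0% of all genes tested), the median of the 108 related genes from -0.20 to 0.43, and the number of them called from 0 to 2, the latter without EV RV replicate 2, where 600 of 14408 genes were called. In limma on either TPM scale 1 gene, *Cdt1*, had groups that did not overlap, as did 34.7% of all genes tested.

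The labels number the replicates of each group 1 and 2 but do not tie a number to a mouse across groups. With the replicate block the median of the 45 genes was 0.15, 36 lay above 0, 0 passed an adjusted p of 0.05 (the smallest was 0.664), and 16 of all genes tested did. Differences between replicate 2 and replicate 1 within EV RV and within Tox RV correlated across all 14143 genes at r = 0.38 and across the 45 genes at r = 0.46, over genes, which are not independent replicates. *Orc1* was at 0.00057 under the block.

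The log2 fold changes of single genes also changed sign. Library totals gave 0.088 for *Mcm3*, 0.076 for *Mcm6*, 0.085 for *Pola2*, 0.066 for *Pold1*, 0.034 for *Lig1* and 0.030 for *Tyms*. Median-of-ratios scaling gave -0.00036 for *Mcm4*. On the TPM scales with 1 and 0.1 added, limma gave -0.048 and -0.049 for *Mcm2*, -0.079 and -0.080 for *Mcm4*, -0.044 and -0.045 for *Mcm7*, -0.037 and -0.038 for *Rfc1*, -0.033 and -0.034 for *Rfc2*, and -0.0015 on both for *Rpa1*. Leaving out *Rn45s* gave -0.011 for *Mcm2* and -0.031 for *Mcm4*. When 1 library was left out, the sign turned for every one of the 45 genes but *Chaf1a* (-0.41 to -0.01). The lowest and highest values were *Mcm2* -0.22 to 0.32, *Mcm3* -0.23 to 0.15, *Mcm4* -0.24 to 0.23, *Mcm5* -0.25 to 0.60, *Mcm6* -0.29 to 0.17, *Mcm7* -0.30 to 0.34, *Mcm10* -0.16 to 0.59, *Gins1* -0.34 to 0.94, *Gins2* -0.30 to 0.54, *Gins3* -0.13 to 0.72, *Gins4* -0.021 to 0.31, *Cdc45* -0.18 to 0.86, *Cdc6* -0.36 to 0.71, *Cdt1* -0.31 to 0.0094, *Orc1* -0.64 to 0.71, *Orc6* -0.30 to 0.68, *Gmnn* -0.20 to 0.77, *Pcna* -0.12 to 0.69, *Rfc1* -0.15 to 0.25, *Rfc2* -0.20 to 0.28, *Rfc3* -0.26 to 0.72, *Rfc4* -0.21 to 0.52, *Rfc5* -0.26 to 0.58, *Pola1* -0.32 to 0.85, *Pola2* -0.33 to 0.21, *Prim1* -0.30 to 0.87, *Prim2* -0.075 to 0.76, *Pold1* -0.41 to 0.24, *Pold2* -0.066 to 0.39, *Pold3* -0.19 to 0.40, *Pole* -0.43 to 0.12, *Pole2* -0.29 to 0.63, *Rpa1* -0.17 to 0.35, *Rpa2* -0.22 to 0.44, *Fen1* -0.19 to 0.67, *Lig1* -0.41 to 0.18, *Rrm1* -0.23 to 0.70, *Rrm2* -0.24 to 0.73, *Tyms* -0.35 to 0.27, *Tk1* -0.18 to 0.76, *Dut* -0.28 to 0.74, *Chaf1b* -0.052 to 0.66, *Uhrf1* -0.25 to 0.64, *Slbp* -0.097 to 0.67, *E2f6* -0.050 to 0.74, *Skp2* -0.10 to 0.77 and *Bub1b* -0.046 to 0.83.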
